A study of Mus musculus with 6 samples.

Results

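The 88 genes described here were taken by their symbols as genes of potassium and sodium channels. They are the protein-coding genes named Kcn, or Scn with a number and the letter a or b, whose normalized count averaged at least 1 over 6 hearts. They came from 99 such rows in a table of 26012 genes, and the other 11 stayed below that mean. All 6 hearts were from male C57BL/6 mice, 8 weeks of age, in which tying off the left anterior descending (LAD) coronary artery had caused myocardial infarction (MI). At surgery each heart received either control mimic (3 hearts) or miR-19a/19b mimics (3 hearts), at 10 μg per heart, in a lipid reagent at sites round the infarct. Ventricular tissue was taken on day 4 after MI, and its polyadenylated RNA was sequenced. A mimic is a synthetic RNA duplex that works in the cell as the mature miRNA. All groups carried an infarct, so no uninjured heart serves as a reference. A library mixes the cell types of the ventricular tissue, and how much infarct, border or remote muscle it held is not stated. The unit throughout is the normalized count, the reads on a gene divided by a size factor of the library. Genes were compared with limma on log2(normalized count + 1), and each log2 fold change is mimic minus control, given ± its standard error.

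Sodium channels open first in each heart beat and carry the upstroke of the action potential. Potassium channels then repolarize the cell: transient outward channels shape the early phase, delayed rectifiers end the plateau, inward rectifiers hold the resting potential, and ATP-sensitive channels couple it to metabolism. A pore subunit forms the conducting path, and beta, KChIP or Kcne subunits change its gating or its number at the membrane. In rodent ventricle the transient outward current dominates repolarization. Outside the muscle cell, other members of the same families work in leukocytes, vessel walls, glia and nerve.

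The mimics carry the sequences below, printed because a channel transcript could pair with them directly. They are the mature strands listed by RefSeq (GRCm38.p6), and the capitals mark the seed, bases 2 to 8. The 2 miRNAs share the seed and differ at U11C, counted from 1 at the 5′ end with the base of miR-19a first.
mmu-miR-19a-3p: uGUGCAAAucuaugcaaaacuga
mmu-miR-19b-3p: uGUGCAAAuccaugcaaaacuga

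In the longest annotated 3′ UTR (GENCODE M21, GRCm38), 9 of the 88 genes held the 8-mer TTTGCACA, the complement of the seed followed by A. The 26-base windows of 8 of them follow, on the strand of the transcript, with the 8-mer in capitals.
Kcna4, chr2:107297123-107297148 (plus strand): tgcaagaatTTTGCACAtaatgggaa
Kcnc4, chr3:107439223-107439248 (minus strand): atatccttgTTTGCACAagactggtg
Kcnd1, chrX:7837515-7837540 (plus strand): tgtaactccTTTGCACActgtcttct
Kcnv2, chr19:27334831-27334856 (plus strand): gaaggctcaTTTGCACAgagcactca
Kcns3, chr12:11091195-11091220 (minus strand): gcaggggcaTTTGCACAgatatctcg
Kcne4, chr1:78818652-78818677 (plus strand): cccagattgTTTGCACAatgcaaagg
Kcnj2, chr11:111073923-111073948 (plus strand): ttttcttttTTTGCACAtggaggtta
Kcnk2, chr1:189208563-189208588 (minus strand): actgtgagtTTTGCACAtggagagat
A match in these letters is a description of the transcript and not a shown binding site. Their levels are given with each gene below.

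Each heart gave between 19398196 and 23645308 reads on genes. Cardiomyocytes were well represented, with all 10 cardiomyocyte marker genes detected in each heart, among them Myh6, Tnnt2 and Ryr2. The summed normalized counts of those markers were 587824, 499731 and 659569 in control mimic hearts, against 914469, 832086 and 304953 in mimic replicates 1, 2 and 3. Replicates 1 and 2 of the mimic group lay above every control heart in this sum and replicate 3 below every control heart, and each of the 10 markers had its lowest value of the 6 hearts in replicate 3. The sum of the macrophage markers ran the other way, at 67773, 77887 and 69460.1 in control mimic hearts, against 55194, 64639 and 85895 in mimic replicates 1, 2 and 3. Neutrophil markers summed to 2521, 2176 and 1874 in control mimic hearts, against 1044, 1705 and 3415 in mimic replicates 1, 2 and 3. Replicate 3 therefore held the lowest sum of cardiomyocyte markers and the highest sums of macrophage and neutrophil markers. It was the highest heart for 5 of the 8 macrophage and 5 of the 6 neutrophil markers, against 22.7% of all tested genes. For the macrophage markers Adgre1, Csf1r and Mrc1 a control heart was the highest. In bulk tissue, fewer cells of a type and less RNA per cell cannot be told apart. T cell markers summed to 274, 317 and 218 in control mimic hearts, against 189, 168 and 194 in mimic replicates 1, 2 and 3. These sums did not overlap between the groups. Of the 7 T cell markers taken singly, 3 were lower without overlap, where 5.3% of all tested genes were. Skeletal muscle markers summed to between 367 and 579 in 5 hearts and to 5139 in miR-19a/19b mimic replicate 1. The sums of the fibroblast, endothelial, smooth muscle and nerve markers overlapped between the groups. None of the marker genes of any list was at 0 in all hearts.

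**Figure D1:**
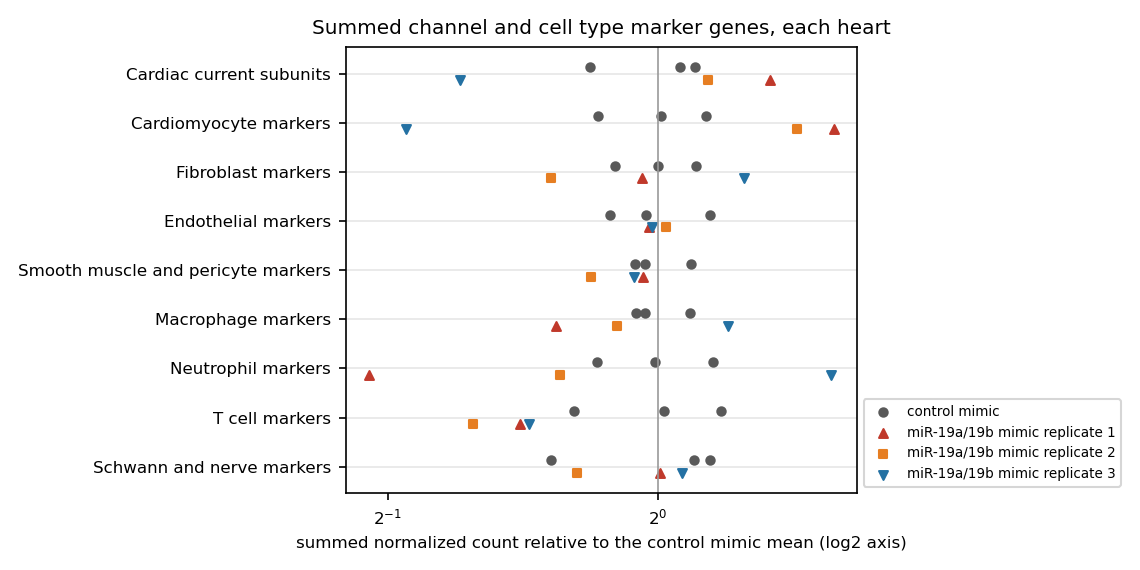
Summed normalized counts of the cardiac current subunits and of the marker genes of 8 cell types, relative to the control mimic mean (horizontal log2 axis), with 1 point per heart. In miR-19a/19b mimic replicate 3 the cardiac current subunits and the cardiomyocyte markers are the lowest of the 6 hearts, and the neutrophil markers the highest.

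Levels can be set side by side between genes only per length, here as normalized counts per kb of the listed gene length. In control mimic hearts the highest potassium channel genes were Kcnk3 (568 ± 52.4 per kb; SD, n = 3), Kcng2 (544 ± 13.2 per kb) and Kcnj11 (483 ± 89.2 per kb), within their spread of each other. Kcna5 came after them at 219.9 ± 29.4 per kb. Kcng2, a modifier that assembles with other voltage-gated subunits, was chosen after its values were seen. The length the authors listed for Kcnj11, 1173 bases, is shorter than the union of its GENCODE M21 exons, 3677 bases, so its value per kb depends on the gene model. In all, 32 of the 88 genes had a mean of at least 100 normalized counts and 36 a mean under 20, where a fold change rests on few reads.

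**Figure D2:**
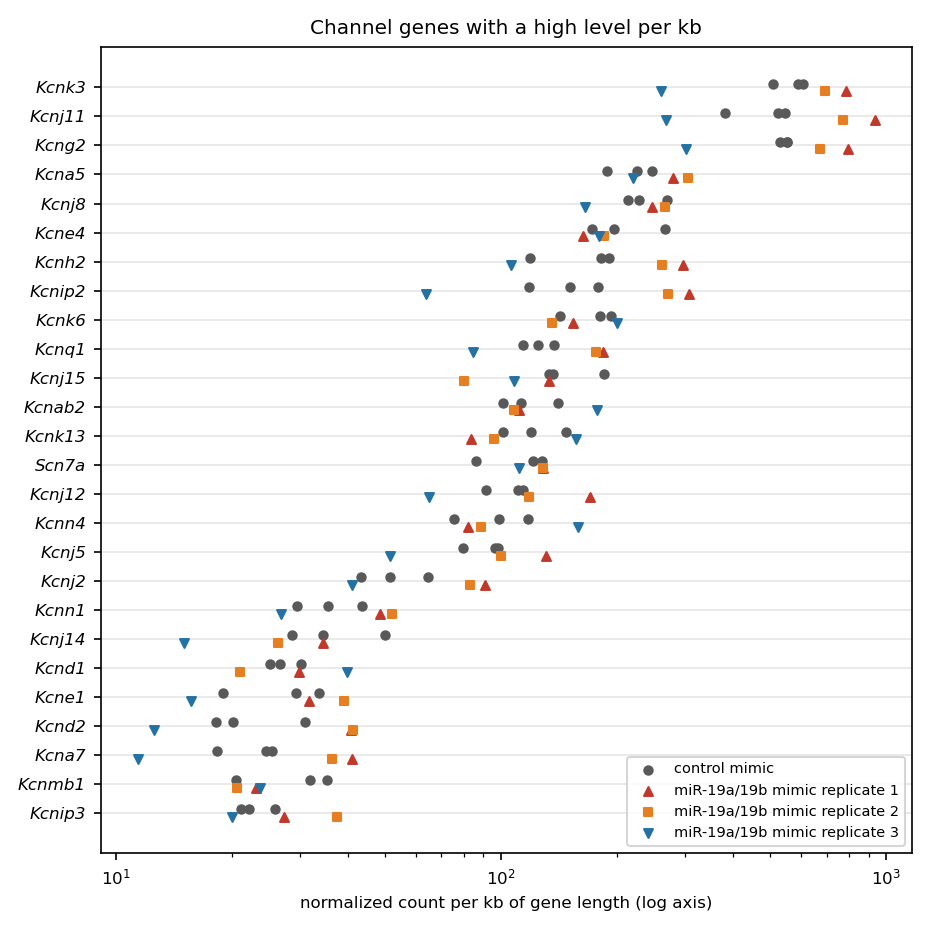
Normalized count per kb of gene length (horizontal log axis) for 26 of the 30 channel genes with the highest mean level per kb, with 1 point per heart. Kcnk3, Kcng2 and Kcnj11 are the highest drawn, and for most genes expressed in cardiomyocytes miR-19a/19b mimic replicate 3 (downward triangle) is the lowest point.

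Between the groups, 0 of the 88 channel genes passed an adjusted p of 0.05 in limma, where 0.0% of all 21126 tested genes did, and their lowest adjusted p was 0.9996. The edgeR quasi-likelihood, edgeR exact and DESeq2 Wald tests on the recovered reads also called 0 of them. The share of all tested genes that those tests called was not counted. At an unadjusted p under 0.05, 2 channel genes were lower in mimic hearts (Kcnj15 and Kcnk5) against 2.63% of all tested genes, and 2 were higher, among them Kcna1, against 1.39%. Those shares of the members are near the background. The groups did not overlap for 4 lower genes, where 5.3% of all tested genes were lower without overlap, and for 4 higher genes, where 3.9% were. The median log2 fold change of the 88 genes was 0.04, with 50 above 0 and 38 below, beside a median of 0.00 over all tested genes. With 3 hearts against 3, the lowest p an exact permutation test of 1 gene can reach is 0.1. By family, the median was 0.16 for the 31 voltage-gated potassium pore subunits and 0.02 for their 13 accessory subunits. It was 0.10 for the 13 inward rectifiers, -0.14 for the 10 two-pore-domain channels and 0.13 for the 10 calcium- and sodium-activated channels. The 7 genes listed as sodium channel pore subunits, with the related Scn7a among them, had a median of -0.18 and the 4 beta subunits -0.06.

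Within the mimic group, replicate 3 differed from the other hearts in the channel genes. It was the lowest of the 6 hearts for 38 of the 88 channel genes (43.2%), against 23.2% of all tested genes, and the highest for 11 (12.5%), against 22.7%. Of the 20 subunits of the main cardiac currents it was the lowest for 15, and the highest for 0. In 20 of the 88 genes mimic replicates 1 and 2 lay above every control heart while replicate 3 lay below every control heart, a pattern seen in 8.55% of all tested genes. The reverse pattern held for 2 channel genes, Kcnk13 and Kcng1, and for 4.44% of all tested genes (Kcng1, another modifier subunit, was chosen after its values were seen). The same pattern as in the 20 held for 9 of the 10 cardiomyocyte markers and for 6 of the 13 inward rectifiers.

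**Figure D3:**
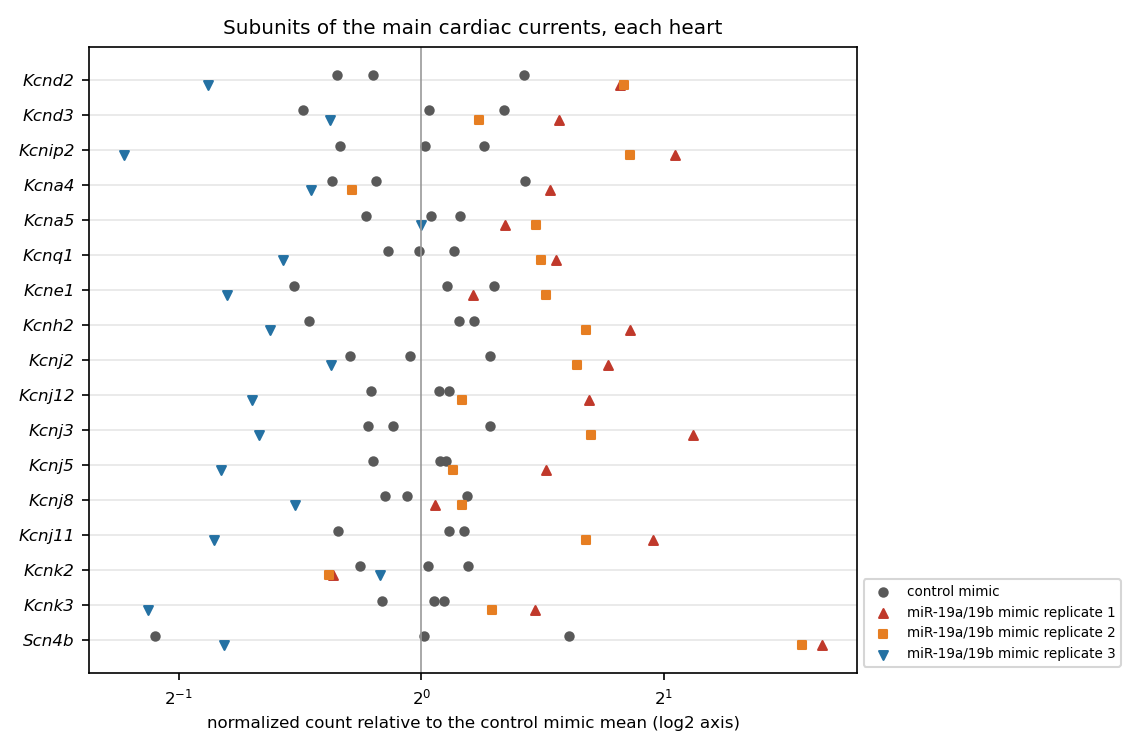
Normalized counts of 17 of the 20 subunits of the main cardiac currents relative to the mean of the control mimic hearts (horizontal log2 axis), with 1 point per heart. Mimic replicates 1 and 2 lie mostly to the right of the control hearts and replicate 3 to the left. Several genes do not follow this pattern, among them Kcnk2, Kcna5 and Kcnj8.

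Scn4b (ENSMUSG00000046480, chr9:45138437-45154152), a beta subunit that modifies sodium channel gating, varied most among the cardiac subunits. Its normalized counts were 67.4, 31.2 and 102 in control mimic replicates 1, 2 and 3, against 209.8, 198 and 38.0 in mimic replicates 1, 2 and 3. Both high values came from mimic replicates 1 and 2, and the third mimic heart lay among the controls. The log2 fold change of 0.95 ± 0.65 was the highest among members with a mean of at least 20, and its unadjusted p was 0.176 in limma. Scn4a, the sodium channel pore of skeletal muscle, was chosen after its values were seen and gave 118, 71.2 and 111 in control mimic hearts and 223, 175 and 46.7 in mimic hearts. Mimic replicates 1 and 2 lay above every control heart and replicate 3 below. Replicate 1, the highest, was also the heart with the high skeletal muscle markers, whose part in these values was not tested.

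The transient outward current is carried by Kcnd2 and Kcnd3 with the KChIP subunit Kcnip2, and its slow part by Kcna4. Kcnip2 (ENSMUSG00000025221, chr19:45791839-45816061) gave normalized counts of 524, 412 and 621 in control mimic replicates 1, 2 and 3, against 1072, 941 and 222 in mimic replicates 1, 2 and 3. The mimic hearts thus held both the highest and the lowest values of the 6. The mean difference was a log2 fold change of 0.25 ± 0.51 (unadjusted p = 0.639, limma), and it was 0.51 to 0.52 in edgeR and DESeq2. In Kcnd2, too, mimic replicates 1 and 2 lay above every control heart and replicate 3 below, with 104, 93.7 and 159.8 in control mimic hearts and 209.8, 212 and 64.8 in mimic hearts. Its log2 fold change was 0.30 ± 0.43, and between 0.011 and 0.86 with 1 heart left out. Kcnd3, which shares 1.72% of its exon bases with the antisense gene Kcnd3os, gave 126, 87.8 and 156 in control mimic hearts and 183, 145 and 95.1 in mimic hearts (0.18 ± 0.28 on the log2 scale). Kcna4, with an 8-mer and a 7-mer match, was low, at 17.7, 15.6 and 27.1 in control mimic hearts and 29.0, 16.5 and 14.7 in mimic hearts, and its log2 fold change was -0.03 ± 0.36.

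Among the delayed rectifiers, Kcna5, the pore of the ultrarapid current, had normalized counts of 647, 538 and 703 in control mimic hearts and 799, 873 and 629 in mimic hearts. Replicate 3 was inside the control range, which it was not for Kcnh2 and Kcnq1, and the log2 fold change was 0.28 ± 0.15 (unadjusted p = 0.0969, limma). Kcnh2 (ENSMUSG00000038319, chr5:24319589-24351604), the pore of the rapid delayed rectifier, gave 883, 575 and 921 in control mimic hearts and 1441, 1268 and 515 in mimic hearts. Mimic replicates 1 and 2 were above every control heart and replicate 3 below them, for a log2 fold change of 0.34 ± 0.36. Kcnq1, the pore of the slow delayed rectifier, had 509.5, 466 and 562 in control mimic hearts and 753, 722 and 346 in mimic hearts and a log2 fold change of 0.16 ± 0.27, and shares 2.96% of its exon bases with the antisense RNA Kcnq1ot1. Its partner Kcne1 gave 93.9, 107 and 60.7 in control mimic hearts and 101, 125 and 50.1 in mimic hearts, with a log2 fold change of 0.02 ± 0.35. None of these delayed rectifier subunits passed an unadjusted p of 0.05 in limma.

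Kcnj2 (ENSMUSG00000041695, chr11:111066164-111076821) and Kcnj12 encode the strong inward rectifiers that set the resting potential. Kcnj2, whose 3′ UTR holds an 8-mer and a 7-mer match, had normalized counts of 353, 236 and 280.3 in control mimic replicates 1, 2 and 3, against 494, 452 and 224 in mimic replicates 1, 2 and 3. With 2 mimic hearts above the controls and 1 below, its log2 fold change was 0.36 ± 0.29. Kcnj12 gave 305, 251 and 314 in control mimic hearts and 468, 326 and 179 in mimic hearts (0.06 ± 0.30 on the log2 scale). Kcnj11 (ENSMUSG00000096146, chr7:46098725-46099897), the main pore of the ATP-sensitive channel of ventricular muscle, gave 613, 447 and 639.9 in control mimic replicates 1, 2 and 3, against 1097, 907 and 314 in mimic replicates 1, 2 and 3. Its log2 fold change was 0.28 ± 0.40 and its order of hearts that of Kcnip2. Kcnj8, the ATP-sensitive pore best known from vascular smooth muscle and pericytes, had 689, 545 and 581 in control mimic hearts and 628, 679 and 422 in mimic hearts. There mimic replicates 1 and 2 stayed inside the control range, and the log2 fold change was -0.09 ± 0.18. Kcnj3 and Kcnj5 form the acetylcholine-activated channel of atrial and pacemaker cells. Kcnj3, which shares 31.1% of its exon bases with Gm26794 on the other strand, gave 78.5, 73.2 and 104 in control mimic hearts and 185, 138 and 53.6 in mimic hearts and 0.40 ± 0.40, and Kcnj5 gave 441, 358 and 433 in control mimic hearts and 586, 449.5 and 232 in mimic hearts and -0.05 ± 0.29 on the log2 scale. The direction of Kcnj5 turned in edgeR and DESeq2, at 0.03 to 0.04.

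Two-pore-domain channels carry background potassium current. Kcnk3 (ENSMUSG00000049265, chr5:30588170-30625271) was among the most abundant potassium channel genes per kb, with normalized counts of 2341, 2020.2 and 2410.3 in control mimic replicates 1, 2 and 3, against 3127, 2762 and 1034 in mimic replicates 1, 2 and 3. Its mimic hearts bracketed the controls, and the log2 fold change of -0.12 ± 0.35 turned to 0.03 in edgeR and DESeq2. Kcnk3 shares 5.76% of its exon bases with Gm9899. Kcnk2, a stretch-sensitive channel with an 8-mer, gave 113, 137 and 153 in control mimic hearts and 104, 103 and 119 in mimic hearts. Mimic replicates 1 and 2 were below the controls and replicate 3 inside their range, for a log2 fold change of -0.29 ± 0.17 (unadjusted p = 0.115, limma). It shares 12.2% of its exon bases with an antisense gene.

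The pair of channel genes lower at an unadjusted p under 0.05 were an inward rectifier and a two-pore channel that are not main carriers of ventricular current. Kcnj15 (ENSMUSG00000062609, chr16:95257558-95300260) had normalized counts of 896, 916 and 1243 in control mimic replicates 1, 2 and 3, against 895, 537 and 724 in mimic replicates 1, 2 and 3. The groups did not overlap, although control replicate 1 and mimic replicate 1 differed by about 1 count. The means were 1019 ± 195 and 719 ± 179 (SD, n = 3 each), for a log2 fold change of -0.52 ± 0.20 (unadjusted p = 0.0281, adjusted p = 0.9996, limma). It shares 5.27% of its exon bases with an antisense gene. Kcnk5 (ENSMUSG00000023243, chr14:20140058-20181782) gave 34.3, 41.0 and 31.8 in control mimic hearts and 21.5, 28.9 and 19.9 in mimic hearts, each mimic heart below each control. Its log2 fold change was -0.60 ± 0.26 (unadjusted p = 0.0457, adjusted p = 0.9996, limma).

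Kcna1 (ENSMUSG00000047976, chr6:126640397-126646384), a voltage-gated pore of axons, was higher at the same threshold but low in level, with 9.95, 5.86 and 7.47 in control mimic hearts and 22.6, 22.7 and 11.2 in mimic hearts. All mimic hearts were above the controls, by a log2 fold change of 1.14 ± 0.39 (unadjusted p = 0.0167, adjusted p = 0.9996, limma). Without each heart in turn, the log2 fold change stayed between 0.98 and 1.46 for Kcna1, between -0.69 and -0.32 for Kcnj15 and between -0.75 and -0.49 for Kcnk5. These 3 were selected by their p. The further genes with no overlap whose values are reported here were all low: Kcnh1 and Kcne2 were lower, and Kcnab3 and Kcnk15 higher. Apart from Kcnh1 they were chosen after their values were seen. Kcne2, an accessory subunit, had at most 2.93 normalized counts in any heart, and Kcnk15 at most 5.19. Kcnab3, a beta subunit of voltage-gated channels, gave 14.4, 12.7 and 11.2 in control mimic hearts and 16.1, 20.6 and 31.1 in mimic hearts.

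**Figure D4:**
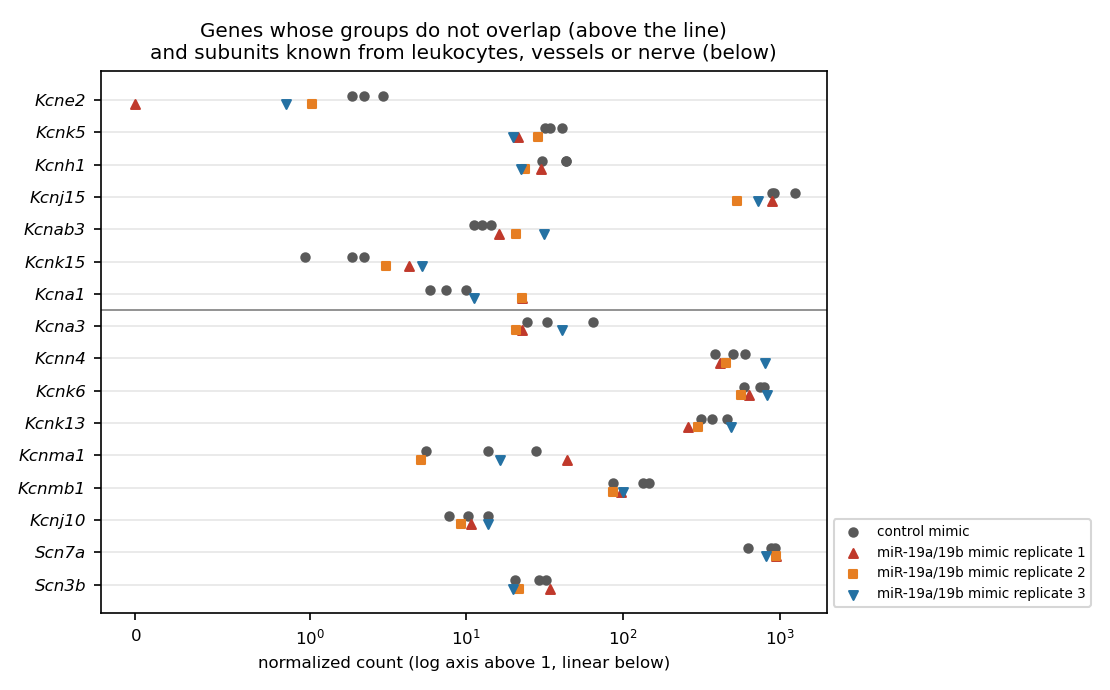
Normalized counts (horizontal axis, log above 1 and linear below) of 7 of the 8 channel genes whose groups did not overlap, above the line, and of 9 subunits known from leukocytes, vessels or nerve, below it, with 1 point per heart. Above the line Kcnj15 has the highest counts, and the points of the other 6 genes drawn there lie far to its left.

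Among members with a mean of at least 20, Kcnv2 and Kcna2 followed Scn4b in the size of a positive log2 fold change. Kcnv2, a silent modifier subunit with an 8-mer, gave 11.1, 15.6 and 23.4 in control mimic hearts and 42.0, 51.5 and 12.1 in mimic hearts (0.87 ± 0.52 on the log2 scale), again high in mimic replicates 1 and 2 only. Kcna2, an axonal pore, had 14.4, 20.5 and 35.5 in control mimic hearts and 31.2, 55.7 and 19.9 in mimic hearts (0.55 ± 0.44). At the other end, Kcnj14 gave 133, 76.1 and 91.6 in control mimic hearts and 91.5, 70.1 and 39.8 in mimic hearts (-0.61 ± 0.32, unadjusted p = 0.0908, limma). Reads of Kcnj14 may be shared with the pseudogene Gm5522, which aligns to it over 1242 bases at 99.1% identity. Kcnh1, a voltage-gated pore best known from brain and tumours, gave 43.1, 30.3 and 43.0 in control mimic hearts and 30.1, 23.7 and 22.5 in mimic hearts (-0.58 ± 0.26, unadjusted p = 0.0504).

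Subunits known from leukocytes, vessels or nerve numbered 9 among the members, and Scn9a of the same list was not analysed here. None passed an unadjusted p of 0.05. Kcnn4, the calcium-activated channel of macrophages and T cells, gave 504, 601 and 385 in control mimic replicates 1, 2 and 3, against 419, 454 and 810.0 in mimic replicates 1, 2 and 3, a log2 fold change of 0.13 ± 0.25. Kcnk13 and Kcnk6, found in myeloid and other non-muscle cells, gave 372, 459 and 315 in control mimic hearts and 260.4, 299 and 486 in mimic hearts (-0.17 ± 0.23) and 591, 749.5 and 799 in control mimic hearts and 637, 563 and 829.9 in mimic hearts (-0.08 ± 0.17). All 3 were highest in mimic replicate 3, the heart with the highest sums of macrophage and neutrophil markers. The part of those cells in these values was not tested. Replicate 3 was the highest heart for 4 of the 9 and the lowest for 1. Kcna3, the T cell channel, gave 64.1, 24.4 and 32.7 in control mimic hearts and 22.6, 20.6 and 40.6 in mimic hearts. Its log2 fold change was -0.46 ± 0.40, and -0.08 without control mimic replicate 1. The sum of the T cell markers was lower in every mimic heart than in every control heart, as given above. The part of T cells in these values was not tested. In vessel walls, Kcnmb1, the smooth muscle subunit of the large-conductance channel, had 134, 85.9 and 148 in control mimic hearts and 96.8, 86.6 and 99.4 in mimic hearts (-0.34 ± 0.22). Its pore Kcnma1 had 5.53, 13.7 and 28.0 in control mimic hearts and 44.1, 5.15 and 16.4 in mimic hearts (0.27 ± 0.75). Scn7a, a sodium-sensing relative of the sodium channels in glia and Schwann cells, gave 630.0, 936 and 887 in control mimic hearts and 944, 944 and 818 in mimic hearts (0.16 ± 0.16). Kcnj10, a glial inward rectifier, had 7.74, 13.7 and 10.3 in control mimic hearts and 10.8, 9.28 and 13.8 in mimic hearts (0.10 ± 0.35), and the beta subunit Scn3b 32.1, 29.3 and 20.6 in control mimic hearts and 34.4, 21.7 and 19.9 in mimic hearts (-0.12 ± 0.31).

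Since replicate 3 stood apart, the comparison was also read without it, with 2 mimic hearts against 3 controls. Then 9 of the 88 channel genes were higher at an adjusted p under 0.05 (limma), where 1.71% of all tested genes were higher, and 0 were lower, where 0.729% were. At an unadjusted p under 0.05, 27 were higher, against 8.41% of all tested genes, and 2 lower (Kcnk13 and Kcnj15), against 6.12%. Leaving out each of the other 5 hearts gave 0 channel genes at an adjusted p under 0.05 in limma. The share of all tested genes called in those 5 fits was not counted, so that 0 cannot be read as particular to the channels. The 9 genes were Scn4b (1.75 ± 0.37 on the log2 scale, adjusted p = 0.0355), Scn4a (1.01 ± 0.22, 0.0424), Kcnip2 (0.97 ± 0.15, 0.0138), Kcnj3 (0.92 ± 0.21, 0.0442), Kcnj11 (0.83 ± 0.15, 0.0235), Kcnh2 (0.80 ± 0.17, 0.0376), Kcnj2 (0.72 ± 0.16, 0.0379), Kcnq1 (0.53 ± 0.11, 0.0335) and Kcng2 (0.43 ± 0.10, 0.0464). They cover the rapid and slow delayed rectifiers, the transient outward current, the strong inward rectifier, the ATP-sensitive and acetylcholine-activated channels and sodium channel subunits, and 7 of them are among the 20 subunits of the main cardiac currents. In the same fit 19 of those 20 were above 0 on the log2 scale, the exception being Kcnk2, and their median was 0.43. The median of all 88 was 0.24, beside 0.00 for all tested genes. These calls rest on mimic replicates 1 and 2, whose summed cardiomyocyte markers were also above every control heart. The part of that difference in the calls was not tested in this fit. The heart left out was singled out after its values were seen.

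**Figure D5:**
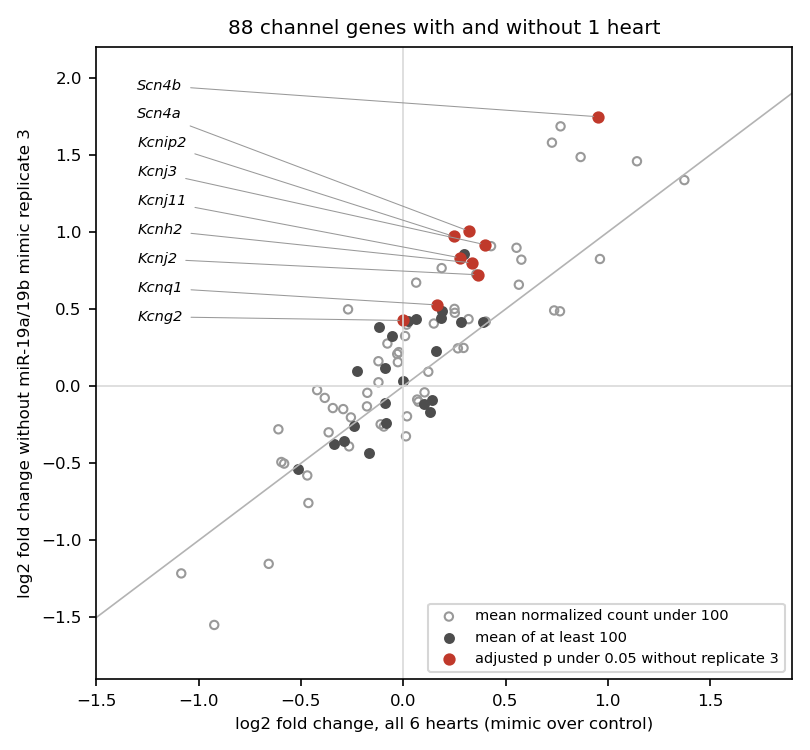
Log2 fold change of the 88 channel genes with all 6 hearts (horizontal axis) and without miR-19a/19b mimic replicate 3 (vertical axis), with the line of equal values. The 9 genes called without that heart (filled red) all lie above the line, and with all hearts Kcng2 was at 0.00 and the other 8 between 0.16 and 0.95.

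To set the channels against the amount of cardiomyocyte RNA, each heart's values were divided by its summed cardiomyocyte markers and given per 100000 marker counts. This scaling was chosen after the values were seen. The sum of the 20 cardiac current subunits was then 3255, 3044 and 3019 in control mimic hearts and 2637, 2474 and 3567 in mimic hearts. In this ratio replicate 3 was the highest heart, where without scaling it was the lowest (10877 against 15210 to 24113). The channel sum therefore ranged less widely over the hearts than the markers, which ran from 304953 to 914469. Among the 88 genes, 2 were lower without overlap, where 1.27% of all tested genes were, and 5 higher, where 1.46% were. The lower genes were Kcnk3, at 398, 404 and 365 in control mimic hearts and 342, 332 and 339 in mimic hearts per 100000, and Kcnj14. Kcnh2, at 150.2, 115 and 139.7 in control mimic hearts and 158, 152 and 169 in mimic hearts, and Kcnj3, at 13.3, 14.6 and 15.7 in control mimic hearts and 20.2, 16.6 and 17.6 in mimic hearts, were higher, as were Kcna1, Kcnv2 and Kcnh7, a brain channel related to Kcnh2 that was chosen after its values were seen. Kcnip2 kept its order, at 89.1, 82.4 and 94.2 in control mimic hearts and 117, 113 and 72.9 in mimic hearts. Kcnj15 and Kcnk5, lower without overlap before scaling, overlapped between the groups in this ratio. Kcnj15 was at 152, 183 and 189 in control mimic hearts and 97.9, 64.6 and 238 in mimic hearts. A ratio to the markers shows unequal change and does not say which of its terms moved.

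Matches to the miR-19 seed were counted on the transcript strand as the 8-mer TTTGCACA or the 7-mers TTTGCAC and TTGCACA, with a 7-mer inside an 8-mer counted once. Any match was found in 20 of the 88 channel genes (22.7%), against 18.4% of 15776 tested protein-coding genes with a 3′ UTR. The 8-mer was found in 9 (10.2%), against 5.57%. Channel 3′ UTRs are longer, with a median of 1704 bases against 1104. Within the first 1000 bases of 3′ UTRs at least that long, the 8-mer was in 6 of 60 channel genes (10.0%) and in 4.28% of 8414 genes, and any match in 13.3% and 14.4%. Over the channel genes with any match the log2 fold changes had a median of 0.14 (8 below 0 and 12 above), and over those without one 0.02. For all tested genes these medians were -0.03 and 0.01. For the 9 channel genes with an 8-mer the median was 0.10, with 4 below 0 and 5 above. Beyond Kcna4, Kcnj2, Kcnk2 and Kcnv2, the 9 include Kcne4, at 458, 707 and 522 in control mimic hearts and 433, 493 and 477 in mimic hearts, and Kcnd1, at 133, 160.1 and 141 in control mimic hearts and 158, 111 and 211 in mimic hearts. Kcnc4 had at most 30.1 and Kcns3 at most 10.8 normalized counts in any heart. Among the 9, 0 passed an unadjusted p of 0.05 in limma, and Kcnc4, Kcnd1, Kcne4 and Kcns3 were chosen for the sequence they hold.

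A list of 40 other genes of cardiac excitation was read beside the channels, and 39 were tested, Dpp10 being below the minimum. It holds calcium channels, pacemaker channels, connexins, the sodium pump, anchoring proteins and transcription factors of the conduction system. Of the 39, 2 were higher at an unadjusted p under 0.05, where 1.39% of all tested genes were, and 0 lower. Cacna1h, a pore of the T-type calcium channel, gave 175, 108 and 178 in control mimic hearts and 239, 201 and 203 in mimic hearts, each mimic heart above each control. Its log2 fold change was 0.51 ± 0.20 (unadjusted p = 0.034, adjusted p = 0.9996, limma). Tbx3, a transcription factor of the conduction system, gave 211, 136 and 206 in control mimic hearts and 265, 259.8 and 218 in mimic hearts and a log2 fold change of 0.45 ± 0.19 (unadjusted p = 0.0423, adjusted p = 0.9996, limma). For Tbx3, replicate 3 lay nearer to the 2 highest control hearts than to the other mimic hearts. In 11 of the 39 mimic replicates 1 and 2 lay above and replicate 3 below every control heart, a pattern of 8.55% of all tested genes. Among them was Cacna1c, the pore of the L-type calcium channel, which was chosen after its values were seen. It gave 4299, 3367 and 4949.6 in control mimic hearts and 6942, 5536 and 2657 in mimic hearts.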

How the data were processed

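RNA from the ventricles of 3 control mimic and 3 miR-19a/19b mimic hearts was sequenced after poly-A selection. According to the submitters' processing notes, the authors aligned reads with STAR (2.5.1b), counted them per gene with HTSeq (0.6.0) and normalized them with DESeq2 (1.10.1). The deposited signal is a count divided by the size factor of its library. Multiplied back, 100% of the values in every library came out as whole reads (tolerance 0.05). The notes list mm9, but 99.94% of the 25884 identifiers found in GENCODE M21 (GRCm38) had the same chromosome and 82.68% matched at both ends. Coordinates are those of the files, taken as GRCm38. All 88 channel genes were found there. Counting by strand is not stated, so 27 channel genes whose exons overlap another gene are uncertain. The gene lengths (unit: other) are also the authors'. Their log2 fold change, p-value and adjusted p-value columns were not used.

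The tables were compared with limma 3.58.1 (R 4.3.3), trended prior, on log2(normalized count + 1), over 21126 genes with a mean of at least 1, with Benjamini-Hochberg adjustment. The scale understates changes of low genes. The study's methods name edgeR, and limma was taken because the deposited values are normalized. On the recovered reads, edgeR 4.0.16 and DESeq2 1.42.0 called 0 of the channel genes. The script was tested on simulated data. With 19398196 to 23645308 reads per heart, 1 normalized count is about 1 read. Alternatives were those tests, TMM factors, a pseudocount of 0.1, no filter, at least 10 in every heart, the replicate number as a block, and each heart left out. Scaling to cardiomyocyte markers was added after seeing the data.

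Genes named are the 20 cardiac current subunits, members at an unadjusted p under 0.05, the 3 highest per kb, the 3 largest rises and falls at a mean of at least 20, the leukocyte, vessel and nerve subunits, and partner genes at an unadjusted p under 0.05. Others are marked as chosen after their values were seen. The values of 4 channel genes, counted in every total and list, are not reported here. Members and lists were chosen with earlier results of these data known. Nothing says whether hearts were processed together. The limma p-values set a group difference against the spread between these hearts, moderated by the trended prior over all tested genes.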

Additional observations from a re-analysis of the deposited data

How the results depend on the processing

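The count of channel genes at an adjusted p under 0.05 was 0 in both directions in limma and under each alternative with all 6 hearts. With 1 heart left out in turn it ranged from 0 to 9 higher genes, the 9 without miR-19a/19b mimic replicate 3, and 0 lower genes. At an unadjusted p under 0.05, the 2 lower genes became 1 with DESeq2, and 0 to 3 with a heart left out. The 2 higher genes became 4 with the edgeR exact test, and 1 to 27 with a heart left out. Of the partner genes, the 2 higher became 1 with DESeq2, 1 with at least 10 counts in every heart and 0 without a filter, and 0 to 15 with a heart left out, where the lower ones ranged from 0 to 1. The median log2 fold change of the channel genes lay between -0.057 and 0.237 with a heart left out, and between 0.04 and 0.12 otherwise. Per cardiomyocyte marker count, the number of lower genes without overlap went from 4 to 2, and the genes were not the same. Kcnj15 and Kcnk5 overlapped in that ratio, and Kcnk3 and Kcnj14 were the lower genes. The causes were not tested.

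The correlations of the deviations of hearts with the same replicate number were -0.008, -0.021 and -0.115. Those of hearts with different numbers lay between -0.103 and 0.116. With 3 hearts per group, these values cannot decide whether the numbers pair the hearts. With the number as a block, the 2 higher partner genes became 1, and no other count moved by over 1.5 times.

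Of 277 values of the 35 named genes under the alternatives with all hearts, 271 kept their direction and call. The other 6 turned sign: Kcnj5, at 0.039 with DESeq2, 0.034 with the exact test and 0.031 with the quasi-likelihood test, and Kcnk3, at 0.032, 0.026 and 0.025. In edgeR and DESeq2 the positive values over 1.5 times as large as in limma were 0.511 to 0.521 for Kcnip2, 0.438 to 0.447 for Kcnj11, 0.152 to 0.16 for Kcnj12, 0.426 to 0.463 for Kcnma1 and 0.065 to 0.072 for Kcne1. With 1 heart left out, 31 of 210 values turned sign, in 17 genes. Their lowest and highest values were -0.31 and 0.20 for Kcna4, -0.041 and 0.439 for Kcnd3, -0.25 and 0.40 for Kcne1, -0.16 and 0.97 for Kcnip2, -0.082 and 0.291 for Kcnj10, -0.069 and 0.833 for Kcnj11, -0.26 and 0.44 for Kcnj12, -0.34 and 0.33 for Kcnj5, -0.23 and 0.12 for Kcnj8, -0.435 and 0.014 for Kcnk13, -0.41 and 0.39 for Kcnk3, -0.24 and 0.04 for Kcnk6, -0.441 and 0.996 for Kcnma1, -0.17 and 0.31 for Kcnn4, -0.033 and 0.527 for Kcnq1, -0.36 and 0.03 for Scn3b and -0.018 and 0.268 for Scn7a. Values that kept their sign but moved by over 1.5 times lay between 0.278 and 0.632 for Cacna1h, 0.177 and 0.898 for Kcna2, -0.758 and -0.079 for Kcna3, 0.172 and 0.417 for Kcna5, 0.011 and 0.86 for Kcnd2, 0.059 and 0.799 for Kcnh2, -0.871 and -0.28 for Kcnj14, -0.69 and -0.322 for Kcnj15, 0.154 and 0.723 for Kcnj2, 0.034 and 0.918 for Kcnj3, -0.41 and -0.19 for Kcnk2, -0.573 and -0.186 for Kcnmb1, 0.484 and 1.486 for Kcnv2, 0.491 and 1.748 for Scn4b and 0.242 and 0.559 for Tbx3. Genes with few reads are limited by depth, for 36 of the 88 had a mean under 20.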
